A study of Homo sapiens with 12 samples.

Results

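The nucleoporins, importins and exportins are the genes that build the nuclear pore and carry cargo through it. They were taken from the gene count table by name, as protein-coding genes with the symbol stems NUP, KPNA, KPNB, IPO, XPO or TNPO followed by digits, together with *CSE1L*, *RAN*, *RANBP2*, *RANGAP1*, *RCC1*, *TPR* and *AAAS*. The rule used no measured value. It found 53 genes among 19708 protein-coding rows, and 50 of them had enough counts to be tested. *IPO4*, *KPNA7* and *NUP210L* were at or near 0 in every library and were not tested.

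RNA of cells given as H520, a human lung squamous cell carcinoma line, was sequenced in 4 groups of 3 libraries. OV-L1-FGGY denotes H520 with a lentiviral *L1-FGGY* construct, a transcript in which an L1 retrotransposon promoter reads into *FGGY*, and OV-CTRL denotes the vector control. The labels give OV-L1-FGGY cells that received DMSO, 10 μM ML355 (an inhibitor of 12-lipoxygenase, 12-LOX) or 450 μM NVR (a reverse transcriptase inhibitor), and OV-CTRL cells that received DMSO. The agents or the DMSO vehicle, at a final 0.2%, were added when the medium was replaced 5 h after seeding. The length of treatment and whether a line is 1 clone or a pool are not given in the sources used here, nor whether the replicates are separate cultures, so that p-values measure only the spread between these libraries. Total counts ran from 16242082 to 27004768 per library.

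*FGGY* was examined first, since it checks the labels. It was at 274, 274 and 312 CPM (counts scaled to library size by TMM) in the replicates 1 to 3 given DMSO and at 362, 324 and 267 CPM with ML355. It was at 4.10, 3.81 and 4.82 CPM in the NVR-labelled libraries and at 3.82, 3.40 and 2.99 CPM in OV-CTRL. The NVR-labelled libraries thus lacked the high *FGGY* count of their labelled line, and each direction given for NVR rests on the label alone. In the count table the columns of these libraries and of the control carry no line name, and the control columns were read as OV-CTRL. The same pairs of groups stood apart in squamous lung markers. *SOX2* was at 0 in all 6 libraries of OV-L1-FGGY with DMSO or ML355 (a count of 0 allows up to 0.185 CPM), at 7.02 to 13.2 CPM in those labelled NVR and at 15.1 to 17.1 CPM in OV-CTRL. *KRT17* was at 929 to 966 CPM with DMSO and 3121 to 4794 CPM with ML355 in OV-L1-FGGY, against at most 0.252 CPM in the other 6 libraries. *KRT5*, *KRT6A*, *DSG3* and *PKP1* were under 1 CPM in every library. Of 9 squamous markers, 1 and 2 reached 1 CPM in OV-L1-FGGY with DMSO and with ML355, and 3 in each of the other groups. Of 3 fibroblast markers, *DCN* was at 55.4 to 66.5 CPM with DMSO, at 9.93 to 14.8 CPM with ML355 and at 0 in the other 6 libraries, *COL1A1* at 50.4 to 61.6, at 35.4 to 43.4 and at 19.2 to 25.0 CPM, and *COL1A2* at most at 0.103 CPM in any library. The sum of the 3 was 106 to 122 CPM with DMSO, 46.3 to 58.2 CPM with ML355 and 19.2 to 25.0 CPM in the other 6. Summed levels ran from 0 to 3.70 CPM for leukocyte, from 0.257 to 9.41 CPM for endothelial, from 0.345 to 10.6 CPM for adenocarcinoma and from 0.345 to 23.7 CPM for neuroendocrine markers. Some sums also differed within a pair. Neuroendocrine markers were at 16.4 to 23.7 CPM in the NVR-labelled libraries and 5.20 to 7.56 CPM in OV-CTRL, and adenocarcinoma markers at 7.58 to 10.6 and 4.57 to 5.42 CPM. In OV-L1-FGGY, endothelial markers were at 8.88 to 9.41 CPM with DMSO and 0.257 to 0.689 CPM with ML355. Because of the difference between the pairs, NVR was compared with OV-CTRL as well as with OV-L1-FGGY. A comparison that crosses the pairs cannot tell the construct or the agent apart from this difference between the cells.

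The nuclear pore is a ring-shaped channel through the nuclear envelope, made of many copies of each nucleoporin. An outer ring (the Y complex) and an inner ring form its scaffold, the central channel is filled by nucleoporins with phenylalanine-glycine repeats, and filaments reach into the cytoplasm and, as the nuclear basket, into the nucleus. Importin alpha proteins (KPNA) recognise nuclear localisation signals and bind importin beta 1 (KPNB1), other importins and transportins carry cargo directly, and exportins carry cargo out. Ran sets the direction, because its exchange factor RCC1 sits on chromatin and its activating protein RANGAP1 in the cytoplasm. Proliferating cells make new pores in interphase and take the envelope apart at mitosis, and several of these genes are known to be transcribed with the cell cycle.

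Promoters from RefSeq (GRCh38.p14, 250 bases before to 50 after the start) were found for 47 of the 53 members. Those of 7 members on which the comparisons turn are shown 5′ to 3′ on the strand of the gene. They are *NUP160* and *NUP107* of the outer ring, *NUP54* and *NUP58*, which bind each other in the central channel, the importin alpha *KPNA2*, its export factor *CSE1L*, and *RCC1*. They lie at chr11:47848301-47848600 (minus strand), chr12:68686728-68687027 (plus strand), chr4:76148348-76148647 (minus strand), chr13:25301375-25301674 (plus strand), chr17:68035485-68035784 (plus strand), chr20:49046062-49046361 (plus strand) and chr1:28505793-28506092 (plus strand). Capitals mark matches, on either strand, to 7 motifs, namely TTCCCGC (E2F), TTTGAA (the core of the cell cycle homology region, CHR), CCAAT (the NF-Y box), CCGGAAG (ETS), GCATGCGC (NRF1), AAGATGGC (YY1) and GGGCGG (GC box).
NUP160: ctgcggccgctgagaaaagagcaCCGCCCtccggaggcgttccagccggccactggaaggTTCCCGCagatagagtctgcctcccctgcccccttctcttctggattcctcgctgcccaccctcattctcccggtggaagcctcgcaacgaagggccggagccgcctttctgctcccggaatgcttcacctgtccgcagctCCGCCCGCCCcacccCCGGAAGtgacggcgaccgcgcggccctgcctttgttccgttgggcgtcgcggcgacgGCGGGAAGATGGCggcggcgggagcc
NUP107: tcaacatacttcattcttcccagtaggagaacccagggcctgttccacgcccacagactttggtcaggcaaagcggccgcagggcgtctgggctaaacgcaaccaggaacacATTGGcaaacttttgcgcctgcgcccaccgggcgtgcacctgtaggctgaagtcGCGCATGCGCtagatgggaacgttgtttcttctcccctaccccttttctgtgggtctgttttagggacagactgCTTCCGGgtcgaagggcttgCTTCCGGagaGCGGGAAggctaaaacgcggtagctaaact
NUP54: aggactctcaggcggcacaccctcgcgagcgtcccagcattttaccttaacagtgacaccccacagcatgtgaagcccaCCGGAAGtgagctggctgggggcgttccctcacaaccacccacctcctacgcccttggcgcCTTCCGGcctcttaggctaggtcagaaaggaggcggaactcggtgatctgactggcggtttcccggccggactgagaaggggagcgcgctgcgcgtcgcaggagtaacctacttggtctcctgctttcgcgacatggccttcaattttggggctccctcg
NUP58: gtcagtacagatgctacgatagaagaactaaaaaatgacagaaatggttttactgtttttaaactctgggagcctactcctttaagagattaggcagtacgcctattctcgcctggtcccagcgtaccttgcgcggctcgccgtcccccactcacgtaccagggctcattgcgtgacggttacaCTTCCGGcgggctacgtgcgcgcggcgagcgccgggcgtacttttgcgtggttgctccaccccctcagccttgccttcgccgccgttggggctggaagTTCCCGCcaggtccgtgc
KPNA2: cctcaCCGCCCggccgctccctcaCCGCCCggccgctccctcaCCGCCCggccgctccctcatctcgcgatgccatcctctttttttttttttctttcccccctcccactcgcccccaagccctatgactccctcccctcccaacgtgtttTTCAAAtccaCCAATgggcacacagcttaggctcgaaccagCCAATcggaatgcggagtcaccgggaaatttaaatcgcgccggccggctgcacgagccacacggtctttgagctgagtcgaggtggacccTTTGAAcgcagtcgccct
CSE1L: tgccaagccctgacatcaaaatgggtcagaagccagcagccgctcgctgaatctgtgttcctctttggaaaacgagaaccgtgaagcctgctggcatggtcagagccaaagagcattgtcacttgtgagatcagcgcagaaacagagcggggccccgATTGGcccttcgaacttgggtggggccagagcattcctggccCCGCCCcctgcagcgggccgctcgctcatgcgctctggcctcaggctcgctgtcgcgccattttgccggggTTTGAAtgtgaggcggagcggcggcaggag
RCC1: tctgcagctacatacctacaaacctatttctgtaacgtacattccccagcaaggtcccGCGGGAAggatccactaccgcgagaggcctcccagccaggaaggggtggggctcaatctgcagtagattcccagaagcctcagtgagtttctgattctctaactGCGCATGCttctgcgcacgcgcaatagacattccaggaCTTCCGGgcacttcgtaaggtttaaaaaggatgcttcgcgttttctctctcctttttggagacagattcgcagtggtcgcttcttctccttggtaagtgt
In *NUP160* the last run of capitals joins an E2F and a YY1 match that share bases, and in *NUP107* 2 NRF1 matches overlap. *KPNA2* and *CSE1L* hold CHR, CCAAT and GC box matches but no E2F match, whereas *NUP58* and *NUP54* share ETS matches. Over the 47 member promoters, the E2F letters occurred in 11 (23.4%, against 8.73% of 15289 protein-coding promoters), CHR in 10 (21.3%, against 12.1%), CCAAT in 23 (48.9%, against 36.6%) and ETS in 13 (27.7%, against 14.4%). NRF1 occurred in 5 (10.6%, against 4.26%), YY1 in 6 (12.8%, against 3.98%) and the GC box in 24 (51.1%, against 59.3%). These shares are descriptions of the letters and were not tested.

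Levels per kilobase of exon differed widely between members. Averaged over the 12 libraries, *RAN*, the GTPase itself, was at 137 CPM per kilobase, ahead of *CSE1L* (64.3), *IPO7* (56.1), *KPNA2* (47.3), *RANGAP1* (38.0), *KPNB1* (30.7) and *IPO5* (29.5). Among tested members the lowest were *KPNA5* (1.30), *NUP54* (1.93), *XPO4* (2.67) and *NUP214* (2.81). Lengths are of all annotated exons together, so that genes with long or rarely used exons are placed too low. Summed over the members, the level was 7800 to 8596 CPM in OV-L1-FGGY with DMSO and 7765 to 8200 CPM with ML355. It was 3479 to 3757 CPM in the NVR-labelled libraries, below the 5180 to 5557 CPM of OV-CTRL and below every other library. In bulk RNA, fewer cells with a transcript and less of it per cell cannot be told apart.

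**Figure D1:**
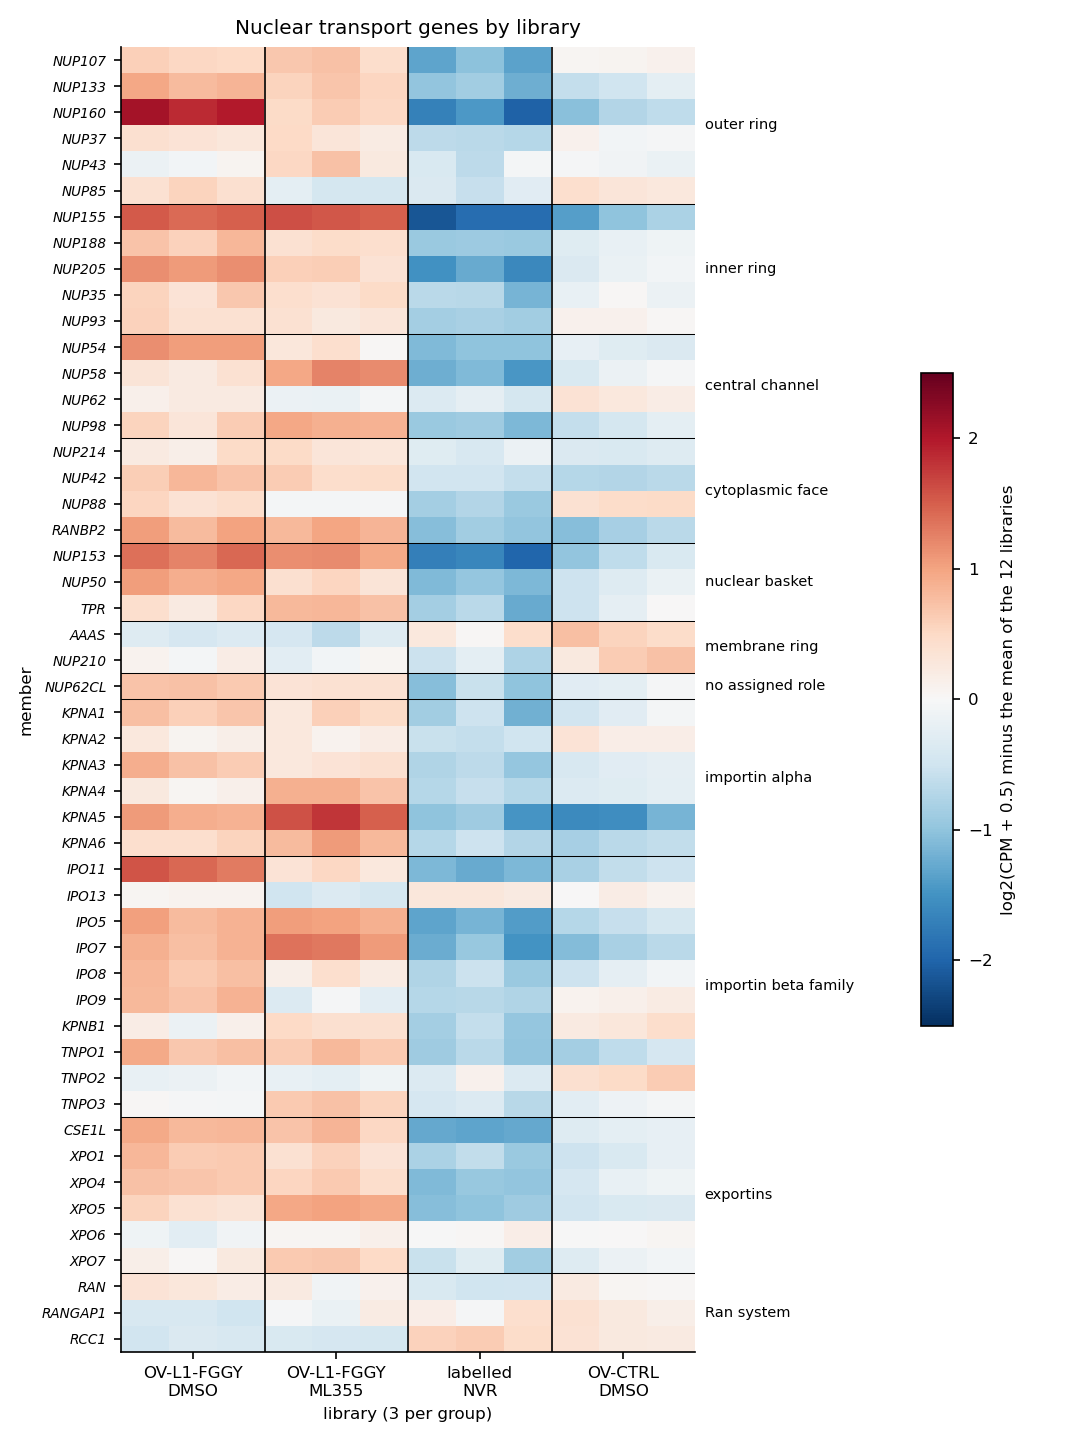
Heat map of the 50 members tested (rows, grouped by role) in the 12 libraries (columns, 3 per group). Colour gives log2(CPM + 0.5) minus the member's mean over the 12 libraries, red above and blue below; the 3 NVR-labelled libraries are blue for most members, while *RCC1* and *IPO13* are red there.

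The comparison of ML355 with DMSO in OV-L1-FGGY asked what the 12-LOX inhibitor changed in the cells with the construct. The members split, with 10 that rose and 11 that fell (edgeR, p adjusted over 17849 genes, threshold 0.01). This was 20% and 22% of the 50 tested, against a background of 21.3% and 23.5% of all genes (44.8% in either direction), so that the number called was near that of genes at large. The median log2 fold change of the members was -0.10, with 0.00 over all genes. Within some complexes calls went both ways, as they did over all genes.

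*NUP160*, a scaffold subunit of the outer ring, showed the largest fall (SE, standard error of the log2 fold change). It was at 387, 332 and 363 CPM with DMSO and 126, 142 and 130.4 CPM with ML355, so that the groups did not overlap and the level was 2.71-fold lower (log2 fold change -1.44, SE 0.14, edgeR adjusted p = 4.05e-07). *NUP85*, another subunit of the same complex, was at 113, 127 and 113 CPM and fell to 72.3, 63.5 and 63.4 CPM (log2 fold change -0.82, SE 0.11, edgeR adjusted p = 1.01e-05). *NUP43* of the outer ring moved the other way, from 36.7, 38.7 and 42.3 CPM to 58.6, 68.1 and 48.5 CPM (log2 fold change 0.57, SE 0.15, edgeR adjusted p = 0.00383). The remaining outer ring members did not pass the test, with log2 fold changes of 0.09 for *NUP107*, -0.0040 for *NUP37* and -0.27 for *NUP133*. Y complex subunits outside the naming rule also went both ways. *SEC13* rose (log2 fold change 1.10, SE 0.13, edgeR adjusted p = 3.83e-06) and *SEH1L* fell (-0.36, SE 0.11, edgeR adjusted p = 0.0091). *AHCTF1* did not pass (0.17, SE 0.16, edgeR adjusted p = 0.391). The count ratio of *NUP160* to *NUP107* within a library, a pair chosen after its values were seen, was 3.71, 3.35 and 3.70 with DMSO and 1.14, 1.23 and 1.38 with ML355.

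In the central channel calls also went both ways. *NUP58* was at 85.6, 80.5 and 89.0 CPM with DMSO and 135, 163 and 157 CPM with ML355, the largest rise among the members (1.78-fold higher, log2 fold change 0.83, SE 0.12, edgeR adjusted p = 2.94e-05). *NUP54*, its binding partner, was at 58.9, 54.1 and 54.3 CPM and fell to 31.6, 35.1 and 26.6 CPM (log2 fold change -0.84, SE 0.12, edgeR adjusted p = 1.47e-05). Neither pair of groups overlapped. The ratio of *NUP58* to *NUP54* counts, also chosen after its values were seen, was 1.45, 1.49 and 1.64 with DMSO and 4.27, 4.65 and 5.90 with ML355. *NUP98*, a channel protein whose gene also encodes the scaffold protein NUP96, rose from 143 to 179 CPM to 211 to 226 CPM (log2 fold change 0.40, SE 0.12, edgeR adjusted p = 0.00801), and *NUP62*, the third partner of NUP54 and NUP58, had a log2 fold change of -0.31 (SE 0.10, edgeR adjusted p = 0.0131). Of the other nucleoporins, *NUP205* of the inner ring (-0.61, SE 0.12, edgeR adjusted p = 0.000417), *NUP88* of the cytoplasmic face (-0.49, SE 0.10, edgeR adjusted p = 0.000461) and *NUP50* of the nuclear basket (-0.55, SE 0.11, edgeR adjusted p = 0.00049) fell. Of the exon length of *NUP88*, 35.5% overlaps *RABEP1* and *RPAIN* on the opposite strand, and whether the counting used strand is not given in the sources used here. The membrane nucleoporin *NUP210* was at 214, 195 and 231 CPM with DMSO and at 168, 192 and 209.6 CPM with ML355, overlapping ranges (log2 fold change -0.17, SE 0.15, edgeR adjusted p = 0.36), and *NUP62CL* at 18.1 to 19.1 CPM and 14.5 to 15.0 CPM did not pass the test (adjusted p = 0.0592, edgeR).

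Among import receptors, 3 of 6 importin alpha members rose and 1 fell. *KPNA4* was at 105, 92.3 and 96.5 CPM with DMSO and 164, 165 and 147 CPM with ML355 (1.62-fold higher, log2 fold change 0.70, SE 0.10, edgeR adjusted p = 1.97e-05). *KPNA5*, the least abundant tested member per kilobase, rose from 21.9, 19.4 and 18.8 CPM to 31.4, 36.0 and 29.4 CPM (log2 fold change 0.69, SE 0.16, edgeR adjusted p = 0.00172). *KPNA6* rose by a log2 fold change of 0.43 and *KPNA3* fell (log2 fold change -0.42), while *KPNA2*, the most abundant of the family per kilobase, was at 356 to 411 CPM and 361 to 407 CPM, overlapping ranges. Of 10 importin beta family members, 1 rose and 4 fell. *IPO11* was at 88.0, 79.8 and 72.2 CPM with DMSO and 37.2, 41.7 and 35.3 CPM with ML355 (2.10-fold lower, log2 fold change -1.07, SE 0.12, edgeR adjusted p = 1.29e-06), and *IPO9*, which carries histones, went from 184, 170.3 and 191 CPM to 82.0, 102 and 86.1 CPM (log2 fold change -1.01, SE 0.10, edgeR adjusted p = 6.58e-07). The groups of both receptors stood well apart. *IPO8* and *IPO13* also fell, with log2 fold changes of -0.49 and -0.51. *TNPO3*, which imports splicing factors, rose from 87.2, 84.0 and 83.0 CPM to 135, 142 and 126 CPM (log2 fold change 0.66, SE 0.11, edgeR adjusted p = 8.99e-05).

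Of 6 exportins, *XPO5*, which exports microRNA precursors, rose from 99.2, 88.0 and 83.8 CPM to 132, 135 and 129.9 CPM (log2 fold change 0.55, SE 0.10, edgeR adjusted p = 0.000199) and *XPO7* rose by a log2 fold change of 0.47, and none fell. *XPO1*, the main protein exporter, was at 343 to 394 CPM and 278 to 330.0 CPM (log2 fold change -0.27, SE 0.12, edgeR adjusted p = 0.0626). In the Ran system *RANGAP1* was at 172, 173 and 161 CPM with DMSO and 222, 203 and 262 CPM with ML355 (log2 fold change 0.44, SE 0.13, edgeR adjusted p = 0.00776), while *RCC1* and *RAN* did not pass the test. Of the 21 calls, 8 were lost when 1 library was left out, 6 of them rises. The rise of *NUP98* was lost without any 1 of the 6 libraries (adjusted p of 0.0108 to 0.061, edgeR). That of *RANGAP1* was lost without any but replicate 2 of ML355 (up to 0.0453), and that of *XPO7* without any but replicate 3 of ML355 (up to 0.0366). *NUP43* lost its call without replicate 1 or 2 of either group (up to 0.0242), *KPNA6* without replicate 1 or 2 of the DMSO arm or replicate 2 of ML355 (up to 0.02), and *KPNA5* without replicate 2 or 3 of the DMSO arm (up to 0.0123). The falls of *KPNA3* (without replicate 1 or 2 of either group, up to 0.0324) and *IPO8* (without replicate 1 or 3 of either group, up to 0.0302) were lost too. The count of members that rose depended on the libraries and on scaling. It was 5, 4 and 6 without replicates 1, 2 and 3 of the DMSO arm, and 6, 6 and 8 without replicates 1, 2 and 3 of ML355. With the library size alone as scaling, which moved the median log2 fold change of all genes from 0.00 to -0.13, 4 members rose and 13 fell; these 4, *KPNA4*, *NUP58*, *TNPO3* and *XPO5*, also rose without each of the 6 libraries in turn.

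**Figure D2:**
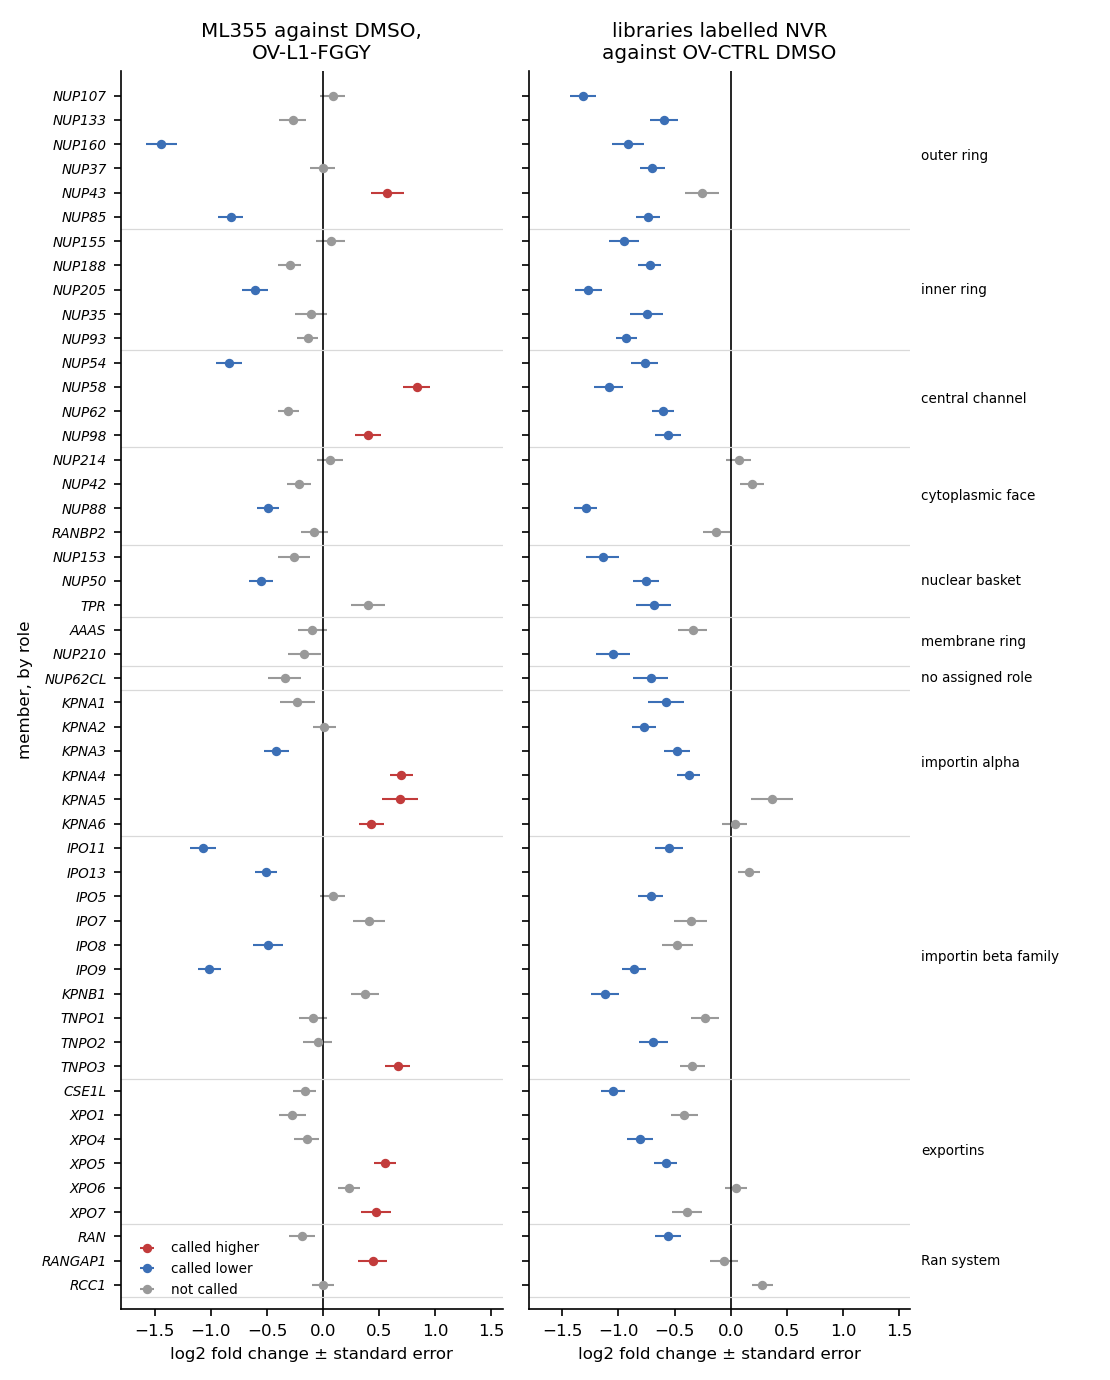
Log2 fold change (points) and standard error (bars) of each tested member, by role, for ML355 against DMSO in OV-L1-FGGY (left) and for the NVR-labelled libraries against OV-CTRL with DMSO (right), which share no library. Red points rose, blue points fell and grey points did not pass the test; the left panel has 10 red and 11 blue points, the right panel 0 red and 33 blue.

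The NVR-labelled libraries were then compared with OV-CTRL, the group they resemble in *FGGY*. Here most members moved one way, and 33 of 50 fell (66.0%), against a background of 15.3% of all genes that fell and 29.8% called in either direction. None rose, against 14.5% of all genes. With edgeR at an unadjusted p under 0.05, *RCC1* and no other member was higher. *RCC1* was also the 1 member called higher by DESeq2, and by edgeR with at least 10 counts asked in every library. The members' median log2 fold change was -0.60 (range -1.31 to 0.37), with 0.00 over all genes. The lowest and highest number that fell, leaving out each library in turn, were 26 and 38. Of the 33 calls, 7 were lost without at least 1 library, those of *IPO11*, *KPNA1*, *KPNA3*, *KPNA4*, *NUP62CL*, *NUP98* and *TPR* (adjusted p of 0.0104 to 0.0469, edgeR). Replicates 2 and 3 of the NVR-labelled libraries differed most among replicate pairs, with a chi-square per degree of freedom of 82.0 over genes, against 6.49 to 36.5 for the other 11 pairs.

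Most members of the scaffold and the channel fell. All 5 inner ring members, all 4 central channel members, all 3 basket members and 5 of 6 outer ring members passed the test. Of the Y complex subunits outside the naming rule, *AHCTF1* fell (log2 fold change -0.75, edgeR adjusted p = 0.00166). *SEH1L* (-0.25, edgeR adjusted p = 0.0723) and *SEC13* (0.25, edgeR adjusted p = 0.141) did not pass. *NUP107* of the outer ring was at 72.0, 72.8 and 75.0 CPM in OV-CTRL and 27.6, 33.7 and 27.0 CPM in the NVR-labelled libraries (2.49-fold lower, log2 fold change -1.31, SE 0.11, edgeR adjusted p = 3.48e-07). *NUP205* of the inner ring went from 76.4, 86.9 and 93.6 CPM to 34.1, 40.9 and 31.6 CPM (log2 fold change -1.27, SE 0.12, edgeR adjusted p = 1.01e-06), and *NUP153*, a basket protein, from 29.6, 37.7 and 45.2 CPM to 17.6, 18.8 and 14.5 CPM (log2 fold change -1.14, SE 0.15, edgeR adjusted p = 2.09e-05). In each of these members every NVR-labelled library lay below every control library. *NUP58* was at 52.2, 61.7 and 67.4 CPM and fell to 28.9, 31.5 and 24.8 CPM (log2 fold change -1.09, SE 0.13, edgeR adjusted p = 6.38e-06), and here its partner *NUP54* fell with it (-0.77, SE 0.12, edgeR adjusted p = 0.000119). *NUP43*, the outer ring member that rose with ML355, had a log2 fold change of -0.26 (SE 0.15, edgeR adjusted p = 0.18).

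On the cytoplasmic face 1 of 4 members fell. *NUP88* was at 69.9, 73.4 and 74.9 CPM in OV-CTRL and 29.3, 31.8 and 27.8 CPM in the NVR-labelled libraries (log2 fold change -1.29, SE 0.10, edgeR adjusted p = 1.03e-07), within the limit on its overlapping exons given above. *NUP214*, which binds NUP88 in the cell, was at 52.7, 52.0 and 54.3 CPM and 54.7, 51.0 and 61.4 CPM (log2 fold change 0.07, SE 0.11, edgeR adjusted p = 0.641). *RANBP2*, which forms the cytoplasmic filaments and shares sequence with the RGPD gene copies, had a log2 fold change of -0.13 (SE 0.12, edgeR adjusted p = 0.411), and *NUP42* one of 0.19 (SE 0.11, edgeR adjusted p = 0.174). *NUP210* of the membrane ring fell from 239.9, 313 and 336 CPM to 139, 172 and 119 CPM (log2 fold change -1.05, SE 0.15, edgeR adjusted p = 5.33e-05) and *AAAS* had one of -0.34 (SE 0.13, edgeR adjusted p = 0.0396). *NUP62CL*, a relative of NUP62 without an assigned role, fell from 9.25 to 11.1 CPM to 5.15 to 7.55 CPM (log2 fold change -0.71, SE 0.16, edgeR adjusted p = 0.00168). Its call was lost in 4 alternatives, among them without replicate 3 of OV-CTRL and without replicate 1 of the NVR-labelled libraries, with adjusted p values of 0.00168 (where a minimum fold change was asked) to 0.0154.

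Of the importins and exportins 12 of 22 fell, beside 20 of 25 nucleoporins, and this difference was not tested. *KPNB1*, the import receptor that carries the importin alpha complex, was at 352, 367 and 409 CPM in OV-CTRL and 167, 198 and 154 CPM in the NVR-labelled libraries (2.17-fold lower, log2 fold change -1.12, SE 0.12, edgeR adjusted p = 4.14e-06). *KPNA2* was at 430.3, 379.5 and 379 CPM and fell to 231, 224 and 240.0 CPM (log2 fold change -0.77, SE 0.11, edgeR adjusted p = 3.16e-05), and *CSE1L*, which returns importin alpha to the cytoplasm, fell from 166, 177 and 181 CPM to 85.1, 83.6 and 85.2 CPM (log2 fold change -1.05, SE 0.11, edgeR adjusted p = 1.63e-06). Each of these 3 members of the classical import cycle was lower in every NVR-labelled library than in any control library. Of the other importin alpha members *KPNA1*, *KPNA3* and *KPNA4* fell, with log2 fold changes of -0.58, -0.48 and -0.37, and *KPNA5* and *KPNA6* had log2 fold changes of 0.37 and 0.04 and did not pass. *IPO5*, *IPO9*, *IPO11* and *TNPO2* fell as well, by log2 fold changes between -0.86 and -0.55, and of the exportins also *XPO4* (-0.81) and *XPO5* (-0.58). *XPO1* (-0.41, SE 0.12, edgeR adjusted p = 0.0113) and *IPO8* (-0.47, SE 0.14, edgeR adjusted p = 0.0106) lay just outside the threshold.

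In the Ran system *RAN* fell from 734, 649.8 and 639 CPM in OV-CTRL to 483, 445 and 448 CPM in the NVR-labelled libraries (log2 fold change -0.56, SE 0.12, edgeR adjusted p = 0.00117). *RCC1* was at 131, 120.0 and 118 CPM and 151, 157 and 139.6 CPM, higher in each NVR-labelled library than in any control library, but did not pass at 0.01 (log2 fold change 0.28, SE 0.09, edgeR adjusted p = 0.024). The ratio of *RCC1* to *RAN* counts within a library was 0.178, 0.185 and 0.185 in OV-CTRL and 0.314, 0.352 and 0.312 in the NVR-labelled libraries, a pair chosen after its values were seen. *RANGAP1* was at 252 to 296 CPM and 222 to 304 CPM, overlapping ranges (adjusted p = 0.736, edgeR).

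Cell cycle genes also fell in the NVR-labelled libraries against OV-CTRL, where 15.3% of all genes fell and 14.5% rose. Of the S phase genes of the Seurat package, 41 of 43 fell and none rose in the NVR-labelled libraries against OV-CTRL (median log2 fold change -1.74), and of the G2/M genes 49 of 54 fell and none rose (log2 fold changes of -2.20 to 0.26 over the list). After ML355 the same lists parted, with 22 of 43 S phase genes that fell and 4 that rose, and 28 of 54 G2/M genes that rose and 4 that fell. Of all genes, 23.5% fell and 21.3% rose there. In OV-L1-FGGY against OV-CTRL, 24 S phase genes were higher and 5 lower (55.8% and 11.6%). The G2/M genes were near even there, with 20 higher and 21 lower (37.0% and 38.9%, beside 32.5% and 36.2% of all genes). *RANGAP1* is a member and also in the G2/M list. The part of the cell cycle in the members' changes was not tested.

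The promoters of the 31 members with one that fell in the NVR-labelled libraries were set beside those of the 14 that did not pass. The E2F letters occurred in 8 of 31 and 3 of 14 (8.73% of all promoters), CHR in 9 and 1 (12.1%), CCAAT in 16 and 6 (36.6%) and ETS in 8 and 4 (14.4%). NRF1 occurred in 4 and 1 (4.26%), YY1 in 5 and 1 (3.98%) and the GC box in 18 and 6 (59.3%). These counts are small and were not tested.

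**Figure D3:**
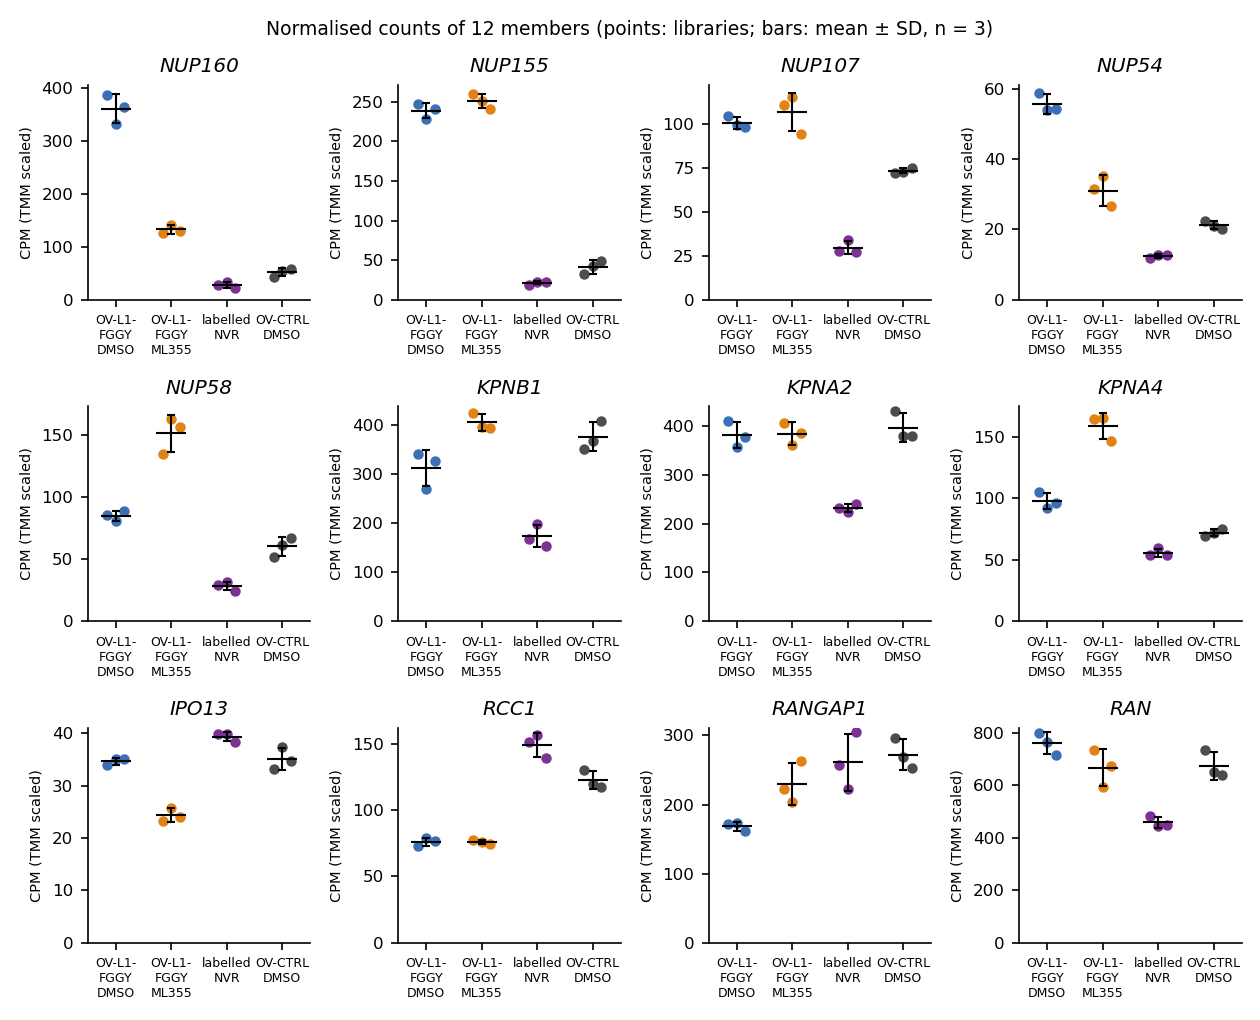
CPM (TMM scaled, linear axes from 0) of 12 members in each library (points), with the mean and SD of the 3 libraries of a group (bars). *NUP160* and *NUP54* are lower with ML355 than with DMSO and *NUP58* and *KPNA4* higher; *NUP107*, *KPNB1*, *KPNA2* and *RAN* have their lowest values in the NVR-labelled libraries, and *RCC1* its highest.

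ML355 against its DMSO and the NVR-labelled libraries against OV-CTRL share no library, so the difference between these effects was tested directly. The agent and the cells change together in it. The difference passed the test below 0, a lower change in the NVR-labelled libraries, for 23 of 50 members and above 0 for 1 (46.0% and 2.0%, against a background of 17.3% and 16.8% of all genes, 34.1% in either direction). *IPO13*, which fell with ML355 and was at 39.8, 39.9 and 38.3 CPM in the NVR-labelled libraries and 33.1, 37.3 and 34.8 CPM in OV-CTRL, was the 1 member called above 0 (0.68, SE 0.14, edgeR adjusted p = 0.000997). *NUP160* (0.53, SE 0.20, edgeR adjusted p = 0.0403), *IPO11* (0.52, SE 0.17, edgeR adjusted p = 0.0187) and *NUP42* (0.40, SE 0.15, edgeR adjusted p = 0.0379) were also above 0 and did not pass. With the library size alone as scaling 0 members were called above 0 and 20 below, and DESeq2 called 2 above. Of all 50 members, 9 fell in both comparisons, 20 fell only in the NVR-labelled libraries by the threshold, 2 fell and 6 rose only with ML355, and 9 passed in neither. The share of all genes in each of these classes was not computed, so the counts describe the members only.

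The 4 remaining members, *NUP58*, *NUP98*, *KPNA4* and *XPO5*, rose with ML355 and fell in the NVR-labelled libraries, and the difference passed the test for each. The difference was also called for each of the 4 without any 1 library. Both opposite calls held without any 1 library for *NUP58* and *XPO5*. The rise of *NUP98* did not hold without any 1 of its 6 libraries, and its fall was lost without replicate 3 of OV-CTRL (adjusted p = 0.0104, edgeR). The fall of *KPNA4* was lost without any 1 of the 6 libraries compared other than replicate 2 of the NVR-labelled ones (adjusted p of 0.0106 to 0.0396, edgeR). Opposite calls with the difference called were found for 5.31% of all genes. *NUP58* had the largest difference, at -1.92 (SE 0.18, edgeR adjusted p = 4.04e-07). *XPO5* was at 48.0, 51.1 and 52.0 CPM in OV-CTRL and 31.9, 33.1 and 36.1 CPM in the NVR-labelled libraries, with a difference of -1.13 (SE 0.14, edgeR adjusted p = 9.85e-06). *KPNA4* was at 69.6, 72.0 and 75.0 CPM and 53.7, 59.3 and 53.9 CPM, with a difference of -1.07 (SE 0.14, edgeR adjusted p = 1.48e-05). *NUP98* was at 76.4, 85.5 and 97.0 CPM and 60.2, 62.4 and 53.0 CPM, with a difference of -0.96 (SE 0.17, edgeR adjusted p = 0.000209). The difference for *KPNB1* was -1.50 (SE 0.17, edgeR adjusted p = 4.64e-06) and that for *NUP107* was -1.40 (SE 0.16, edgeR adjusted p = 3.46e-06), although neither passed the test with ML355 alone. For the 9 members that fell in both, such as *IPO9* with a log2 fold change of -1.01 with ML355 and -0.86 in the NVR-labelled libraries, the difference passed for *NUP205* (-0.66, SE 0.17, edgeR adjusted p = 0.00446) and *NUP88* (-0.80, SE 0.14, edgeR adjusted p = 0.00021), both further down in the NVR-labelled libraries. That of *NUP205* was lost in 9 of the fits that leave out 1 library (adjusted p up to 0.0191, edgeR).

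**Figure D4:**
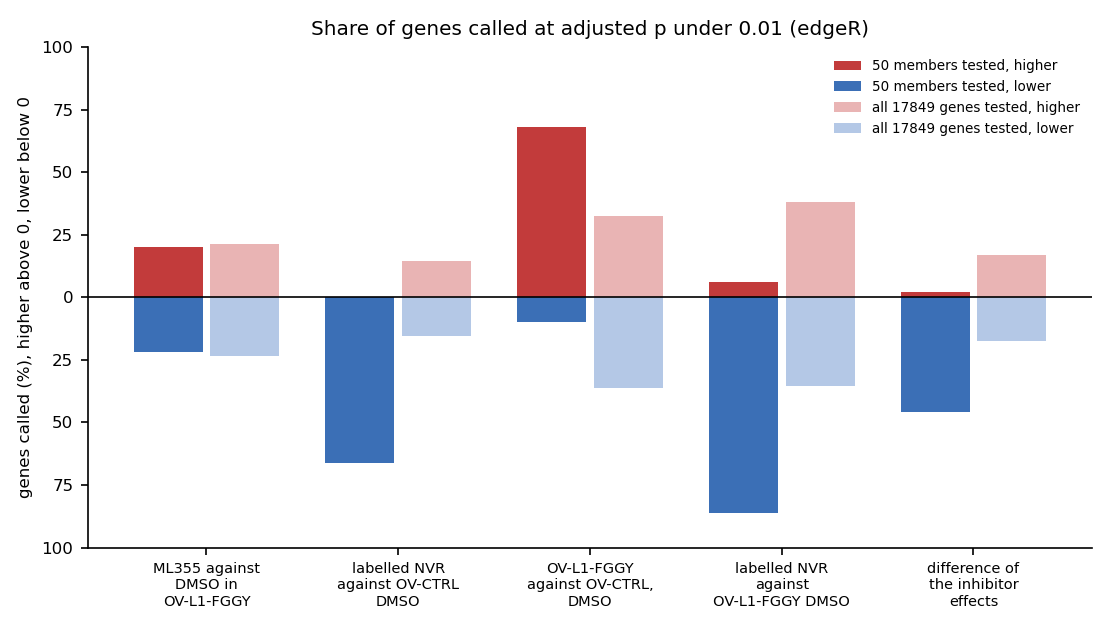
Share of the 50 tested members (dark bars) and of all 17849 genes tested (pale bars) called higher (above 0) or lower (below 0) at an edgeR adjusted p under 0.01, in each of 5 comparisons. With ML355 the members' shares (20% and 22%) lie near the background (21.3% and 23.5%); in the NVR-labelled libraries against OV-CTRL 66.0% fell, against 15.3%.

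OV-L1-FGGY was compared with OV-CTRL, both in DMSO, which asks what the construct changed but crosses the 2 pairs of groups that differ in *SOX2* and *KRT17*. Of the 50 members 34 were higher in OV-L1-FGGY and 5 lower (68.0% and 10.0%), against a background of 32.5% and 36.2% of all genes, 68.7% in either direction. The median log2 fold change was 0.75 over the members and -0.11 over all genes. All 5 inner ring members, all 3 basket members and 5 of 6 importin alpha members were higher. *NUP160* was at 43.7, 54.9 and 58.2 CPM in OV-CTRL and 387, 332 and 363 CPM in OV-L1-FGGY (6.90-fold higher, log2 fold change 2.79, SE 0.15, edgeR adjusted p = 6.97e-11). *NUP155*, an inner ring scaffold protein, was at 32.3, 42.0 and 49.3 CPM and 248, 228 and 241 CPM (5.79-fold higher, log2 fold change 2.53, SE 0.14, edgeR adjusted p = 8.45e-11). The ranges of both lay far apart.

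*KPNA5* was at 3.03, 3.12 and 4.25 CPM in OV-CTRL and 21.9, 19.4 and 18.8 CPM in OV-L1-FGGY (log2 fold change 2.53, SE 0.18, edgeR adjusted p = 2.34e-09), *IPO11* at 16.5, 18.9 and 20.3 CPM and 88.0, 79.8 and 72.2 CPM (log2 fold change 2.10, SE 0.12, edgeR adjusted p = 1.74e-10) and *NUP153* at 29.6, 37.7 and 45.2 CPM and 155, 140.2 and 159 CPM (log2 fold change 2.01, SE 0.15, edgeR adjusted p = 3.24e-09). In the remaining groups *NUP54* (1.40, SE 0.12, edgeR adjusted p = 1.76e-08), *RANBP2* (1.81, SE 0.12, edgeR adjusted p = 1.21e-09), *CSE1L* (1.12, SE 0.11, edgeR adjusted p = 6.88e-08) and *NUP62CL* (0.91, SE 0.15, edgeR adjusted p = 3.64e-05) had the smallest p-values among those higher. Of the 5 members that were lower, *TNPO2* belongs to the importin beta family, in which 6 members were higher. *AAAS*, a partner of the membrane ring, was at 101, 88.4 and 82.8 CPM in OV-CTRL and 48.3, 44.8 and 47.2 CPM in OV-L1-FGGY (log2 fold change -0.96, SE 0.13, edgeR adjusted p = 4.28e-06). Both regulators of Ran were lower, *RANGAP1* at 296, 268 and 252 CPM and 172, 173 and 161 CPM (log2 fold change -0.69, SE 0.13, edgeR adjusted p = 0.000134) and *RCC1* at 131, 120.0 and 118 CPM and 72.7, 78.9 and 76.9 CPM (log2 fold change -0.69, SE 0.10, edgeR adjusted p = 6e-06), while *RAN* itself did not pass the test (log2 fold change 0.17, SE 0.12, edgeR adjusted p = 0.179). *TNPO2* was at 73.4, 77.5 and 86.1 CPM and 48.7, 50.3 and 52.9 CPM (log2 fold change -0.64, SE 0.13, edgeR adjusted p = 0.000222). *NUP210* was at 239.9, 313 and 336 CPM and 214, 195 and 231 CPM (log2 fold change -0.48, SE 0.15, edgeR adjusted p = 0.00887), a call that was lost in 9 alternatives, 5 of which leave out 1 library each (replicate 2 or 3 of OV-CTRL, or any replicate of OV-L1-FGGY with DMSO), with adjusted p values of 0.00887 to 0.0574. *NUP37*, *NUP58* and *NUP93*, which were higher, also lost the call without 1 library (adjusted p up to 0.0436, edgeR).

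Neighbouring genes moved with some of these members and not with others. They are given around *NUP155*, *IPO5*, *NUP160* and *NUP188* only, which were not chosen by a rule. Of all genes, 32.5% were higher and 36.2% lower in this comparison. The 5 nearest tested protein-coding genes that were not members, on each side of *NUP155*, were all higher in OV-L1-FGGY, with a median log2 fold change of 3.72 (1.99 to 9.50) that exceeds that of *NUP155* itself. All 10 around *IPO5* were higher as well (median 1.29, 0.78 to 10.1), where *IPO5* was at 1.47 (SE 0.11, edgeR adjusted p = 5.64e-09). Around *NUP160*, in contrast, 4 of 10 were higher and 5 lower (median -0.56), and around *NUP188* 1 was higher and 6 lower (median -0.57), where *NUP188* was at 0.92 (SE 0.10, edgeR adjusted p = 3.54e-07). Whether larger chromosomal differences have a part in the members' values was not tested.

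The comparison that the labels give for NVR, against OV-L1-FGGY with DMSO, crosses the same pairs and shares its control with the ML355 comparison. In it 43 of 50 members were lower and 3 higher (86.0% and 6.0%), against a background of 35.4% and 38.2% of all genes, 73.6% in either direction. The members' median log2 fold change was -1.45, with 0.08 over all genes. *NUP160*, at 27.7, 33.2 and 22.1 CPM in the NVR-labelled libraries, was 13.0-fold lower (log2 fold change -3.70, SE 0.16, edgeR adjusted p = 3.5e-12), *NUP155* 11.2-fold lower (log2 fold change -3.48, SE 0.14, edgeR adjusted p = 2.92e-12) and *NUP153* 8.90-fold lower (log2 fold change -3.15, SE 0.16, edgeR adjusted p = 2.26e-11). *NUP155* was at 19.0, 22.5 and 22.5 CPM in the NVR-labelled libraries and *IPO11* at 13.0, 11.9 and 13.2 CPM. Besides *NUP160*, *NUP155* and *NUP153*, the lower members with the smallest p-values in their role were *IPO11* (-2.65, SE 0.13, edgeR adjusted p = 1.32e-11), *NUP54* (-2.16, SE 0.12, edgeR adjusted p = 1.1e-10), *RANBP2* (-1.94, SE 0.12, edgeR adjusted p = 4.46e-10), *KPNA3* (-1.55, SE 0.12, edgeR adjusted p = 3.56e-09), *CSE1L* (-2.16, SE 0.11, edgeR adjusted p = 2.82e-11) and *NUP62CL* (-1.63, SE 0.16, edgeR adjusted p = 6.43e-08). In the membrane ring and the Ran system the smallest p belonged to members that were higher, *AAAS* and *RCC1*, given below. *NUP205*, with a log2 fold change of -2.60 (SE 0.13, edgeR adjusted p = 1.91e-11), completed the 5 largest falls.

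The 3 members that were higher were *RCC1* (0.97, SE 0.10, edgeR adjusted p = 9.29e-08), *RANGAP1* (0.63, SE 0.13, edgeR adjusted p = 0.000282) and *AAAS* (0.62, SE 0.13, edgeR adjusted p = 0.000328), which had been lower in OV-L1-FGGY than in OV-CTRL, a comparison that shares the OV-L1-FGGY libraries with this one. *AAAS* was at 72.4, 61.0 and 82.1 CPM in the NVR-labelled libraries. *IPO13*, *NUP43*, *TNPO2* and *XPO6* did not pass. *XPO6*, the exporter of actin, passed in none of the 4 comparisons of 2 groups, and its level ran from 135 to 181 CPM over the 12 libraries, the narrowest range of the 6 exportins on a relative scale.

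Within-library count ratios do not depend on scaling between libraries and show how the members' balance shifted. Their pairs were chosen after the values were seen and are given without a test. *NUP153* to *NUP62*, a basket and a channel protein, stood at 1.19, 1.01 and 1.15 in OV-L1-FGGY with DMSO and at 0.194, 0.264 and 0.334 in OV-CTRL. *KPNB1* to *KPNA2*, the parts of the classical import receptor, stood at 0.830, 0.757 and 0.868 with DMSO and 1.04, 1.10 and 1.03 with ML355, and ran from 0.641 to 0.883 in the NVR-labelled libraries, overlapping OV-CTRL (0.818 to 1.08). *CSE1L* to *XPO1* stood at 0.669, 0.580 and 0.735 in the NVR-labelled libraries and at 0.941 to 1.18 in the other 9 libraries, so that the exporter of importin alpha was lower there in relation to the general exporter.

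**Figure D5:**
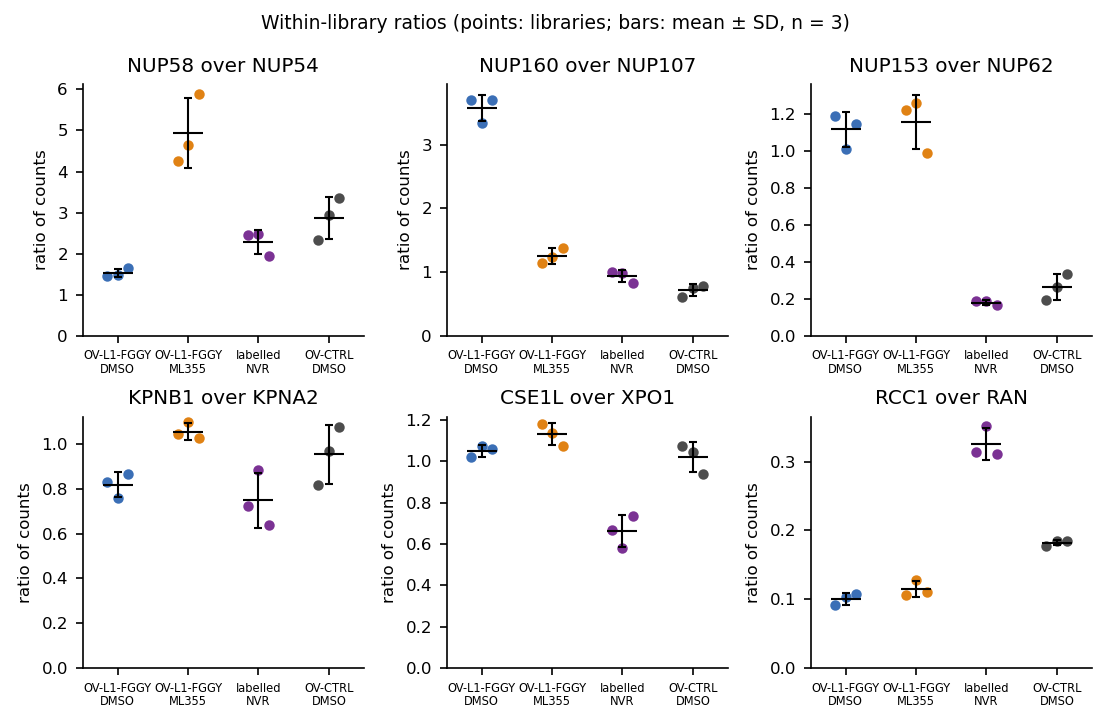
Ratio of the counts of 2 members within each library (points; vertical axes linear from 0), with the mean and SD of the 3 libraries of a group (bars). *NUP58* over *NUP54* is highest with ML355 (4.27 to 5.90), *NUP160* over *NUP107* highest in OV-L1-FGGY with DMSO (3.35 to 3.71), and *RCC1* over *RAN* highest in the NVR-labelled libraries (0.312 to 0.352).

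Of 30 further genes of nuclear transport outside the naming rule (other pore subunits, Ran binding proteins and mRNA export factors), 9 rose and 6 fell with ML355 (30% and 20%, beside 21.3% and 23.5% of all genes) and 1 rose and 10 fell in the NVR-labelled libraries against OV-CTRL (3.33% and 33.3%, beside 14.5% and 15.3%). In OV-L1-FGGY against OV-CTRL 13 were higher and 7 lower (43.3% and 23.3%, beside 32.5% and 36.2%). Their median log2 fold changes were 0.15, -0.37 and 0.15, beside 0.00, 0.00 and -0.11 over all genes. With ML355 *XPOT*, the exportin of transfer RNA, rose by a log2 fold change of 1.42 (SE 0.12, edgeR adjusted p = 6.51e-08), and *NCBP1*, a subunit of the nuclear cap binding complex, fell by 1.43 on the log2 scale while its partner *NCBP2* rose (log2 fold change 0.97, edgeR adjusted p = 1.58e-06). In the NVR-labelled libraries the largest fall was that of *RANBP1*, a cofactor of RANGAP1 (log2 fold change -1.26, edgeR adjusted p = 1e-05), followed by *NDC1*, which anchors the pore in the membrane (-0.99, edgeR adjusted p = 7.06e-06). The 1 gene that rose was *NXF1*, the main mRNA export receptor (0.44, edgeR adjusted p = 0.00432). These genes were chosen for mention after their values were seen.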

How the data were processed

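RNA-seq was performed on 12 libraries of cells given as H520, 3 per group. Whether all groups are of that line was not tested. The authors aligned reads with STAR (2.5.3a) to hg38 and deposited raw read counts per Ensembl gene made with HTSeq (0.11.2); annotation release, strand setting and the treatment of multi-mapping reads are not given in the sources used here. The labels name a TruSeq kit and the study's methods an NEB kit. Of 58302 rows, 57532 matched GENCODE release 44, from which symbols and exon lengths were taken. Samples were grouped by their GEO titles. The count columns of the NVR-labelled libraries and of the control lack the line name and were matched by treatment and number.

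Genes were filtered with filterByExpr (17849 kept), scaled by TMM and tested in 1 fit of 4 group means by the quasi-likelihood test of edgeR (4.0.16, R 4.3.3), at a Benjamini-Hochberg adjusted p under 0.01, the threshold of the study. The biological coefficient of variation was 0.143. A count of 3 corresponded to 0.111 to 0.185 CPM, and such floors cover counting error only. Fits were tested on simulated data. Alternatives used limma voom (3.58.1), the study's own test, DESeq2 (1.42.0), other scaling, filters and thresholds, a replicate block, and each library left out in turn.

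The members, their roles and all lists were chosen with earlier results of these data known. Any member may be named. Selected for values in every library were up to 5 members with the largest rise and 5 with the largest fall per comparison, among those called with groups that did not overlap and a mean of at least 1 CPM. The member with the smallest p in each role and members with opposite calls were selected too. Some of these are given only as a range or as the fold change with its test. Values per library of further members were added after they were seen. The cell cycle lists are those of the Seurat package.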

Additional observations from a re-analysis of the deposited data

Results flagged for a closer look

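The effect of ML355 in OV-L1-FGGY and the difference between the NVR-labelled libraries and OV-CTRL were not equal for 24 of 50 members, by the test of the difference in edgeR at an adjusted p under 0.01. Of the members 46.0% were called below 0 and 2.0% above. Of all genes 17.3% were called below 0 and 16.8% above, 34.1% in either direction. The agent and the cells change together in this contrast and cannot be told apart. Each value is a log2 difference, and below 0 the NVR-labelled libraries had the lower change.

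In the pore the difference was -1.92 for *NUP58* and -0.96 for *NUP98* of the central channel, and -1.40 for *NUP107*, -0.83 for *NUP43* and -0.70 for *NUP37* of the outer ring. In the inner ring it was -1.02 for *NUP155*, -0.79 for *NUP93* and -0.66 for *NUP205*. It was -1.09 for *TPR* and -0.88 for *NUP153* of the nuclear basket, -0.80 for *NUP88* of the cytoplasmic face and -0.88 for *NUP210* of the membrane ring.

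Among import receptors the difference was -1.50 for *KPNB1*, -1.07 for *KPNA4*, -1.01 for *TNPO3*, -0.80 for *IPO5*, -0.79 for *KPNA2*, -0.77 for *IPO7* and -0.64 for *TNPO2*, and 0.68 for *IPO13*. Among exportins it was -1.13 for *XPO5*, -0.88 for *CSE1L*, -0.86 for *XPO7* and -0.66 for *XPO4*. The Ran system had no member among the 24. The difference lost its call without at least 1 library for 6 of the 24, *IPO7*, *NUP43*, *NUP205*, *NUP210*, *TNPO2* and *XPO4* (adjusted p up to 0.0357, edgeR).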

How the results depend on the processing

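Of 2760 recomputed values for 165 results on single members (every member called in a comparison, and 2 others named), 2516 kept their direction and side of the threshold, 244 kept the direction and lost the call, and none reversed. Of the 244, 92 came from a minimum absolute log2 fold change of 1, which by its construction leaves fewer members called, 3 for ML355, 8 for the NVR-labelled libraries against OV-CTRL, 19 for OV-L1-FGGY against OV-CTRL and 8 for the difference of the effects, in place of 21, 33, 39 and 24. Leaving out each library in turn called 14 to 18 members for ML355, 26 to 38 for the NVR-labelled libraries against OV-CTRL, 36 to 38 for OV-L1-FGGY against OV-CTRL, 45 to 46 for the NVR-labelled libraries against OV-L1-FGGY and 18 to 24 for the difference. Calls lost without at least 1 library numbered 8 of 21, 7 of 33, 4 of 39, 1 of 46 and 6 of 24 in these comparisons. An arm left with 2 libraries shares the spread of all groups. DESeq2 called 26, 36, 38, 48 and 26 members in these comparisons and limma voom 22, 34, 38, 46 and 24.

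With the library size alone as scaling, the median log2 fold change of all genes moved to -0.13 for ML355 and to -0.15 for the NVR-labelled libraries against OV-CTRL, and of all genes in the latter 1825 were higher and 3208 lower in place of 2593 and 2723. The members then split into 4 higher and 13 lower for ML355 and 0 and 36 for the NVR-labelled libraries.

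With the replicate number as a block, 18, 31, 38, 46 and 23 members were called. Same-numbered libraries did not deviate together (correlations of -0.35 to 0.17, and in most cases the best match had another number), so the numbers were not treated as pairs. Genes near the floor of 3 counts, among them *IPO4*, *KPNA7* and *NUP210L*, could not be compared at this depth. For *IPO4*, 69.5% of the exon length overlaps exons of other genes, among them *REC8* (68.7% on the same strand). How reads in shared exons were counted is not given in the sources used here, so its low counts may not give its level.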

Other observations

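Within the NVR-labelled libraries, replicate 2 was above its group mean for 39 of 50 members and replicate 3 for 13, and within OV-CTRL replicate 3 was above for 37 and replicate 1 for 11. Within OV-L1-FGGY with DMSO, replicate 1 was above its group mean for 40 members and replicate 2 for 9.

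The ratio of *KPNA4* to *KPNA2* counts within a library was 0.255, 0.259 and 0.257 in OV-L1-FGGY with DMSO, 0.404, 0.458 and 0.382 with ML355, 0.232, 0.265 and 0.225 in the NVR-labelled libraries and 0.162, 0.190 and 0.198 in OV-CTRL. The ratio of *XPO5* to *XPO1* was 0.252, 0.257 and 0.241 with DMSO and 0.460, 0.408 and 0.467 with ML355. Both pairs were chosen after their values were seen.

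Across the 50 members, which are not independent replicates, the log2 fold change of the NVR-labelled libraries against OV-CTRL had a Spearman rho of -0.18 with exon length, beside -0.22 across 13878 protein-coding genes. For ML355 against DMSO it was 0.11 for the members, beside -0.10 for protein-coding genes. It was 0.24 beside 0.13 for OV-L1-FGGY against OV-CTRL, and -0.28 beside -0.19 for the NVR-labelled libraries against OV-L1-FGGY. For the difference of the effects it was -0.14 beside -0.05.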
